A study of Mus musculus with 16 samples.

Results

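Domain V of 28S rRNA holds the peptidyl transferase centre, the part of the large ribosomal subunit that joins amino acids into a peptide. Uridines in rRNA are converted to pseudouridine by dyskerin, the enzyme of the box H/ACA ribonucleoproteins, and each box H/ACA snoRNA guides the enzyme to its target by base pairing. Pseudouridine is densest in the functional centres of the ribosome, of which the peptidyl transferase centre is one. Ψ-seq detects it with the carbodiimide CMC, which leaves a stable adduct on pseudouridine so that reverse transcription ends at the nucleotide 3′ of it. A read start that is frequent with CMC and rare without it therefore marks the nucleotide 1 before it.

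The region described here comprised all 640 read-start positions of 28S rRNA whose preceding nucleotides run from 3600 to 4239, counted from the first nucleotide of the 28S sequence used in the files. It was chosen by position alone, out of 4731 positions in 28S and 6878 in all 4 rRNAs, and covers domain V approximately. Total RNA came from CD4 T cells of female mice with the genotype Rnmt fl/fl CD4cre - (control) or Rnmt fl/fl CD4cre + (Rnmt cKO). All animals carried the floxed gene of the mRNA cap guanine methyltransferase RNMT, and Cre driven by the CD4 promoter removes it from the double-positive stage of thymocyte development onwards. The cells were activated for 20 h on plates coated with anti-CD3 and anti-CD28, and their RNA was fragmented and incubated with CMC or with buffer alone (mock). There were 4 animals of each genotype, each with 1 CMC and 1 mock library, 16 libraries in all. The age of the mice was not given, and rRNA positions alone cannot show which cells the RNA came from.

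The 16 libraries held 1130058 to 2165668 deduplicated read starts, of which 68136 to 133687 lay in domain V. Percent termination is given as the read starts at a position divided by those in the 65 nucleotides up to and including it. True read coverage was not part of the files used, so percentages are on the scale of this window. Dividing the CMC termination by its mock counterpart from one animal gave the PSU score. One library stood apart. Across the 339 positions of domain V with a mean mock termination of at least 1%, the log2 mock termination of control mock 1 had a median r of 0.672 with the other 7 mock libraries, against 0.867 to 0.949 for those, while the 8 CMC libraries had medians of 0.937 to 0.961. Control mock 1 was most like Rnmt cKO mock 1 (r = 0.841), whereas Rnmt cKO mock 1 was most like control mock 4 (r = 0.960). These correlations are descriptions across positions, which are not replicates. Results that rest on control mock 1 and Rnmt cKO mock 1 are given with and without the animals numbered 1, a choice made after the values had been seen.

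A site was called in a genotype where its CMC termination averaged 3% or more and its PSU score averaged 3 or more. In domain V 13 sites were called in either genotype, 2.03% of its positions against 1.02% of all rRNA positions (70 of 6878). Of these, 11 were called in control, against 0.916% of all rRNA positions, and 13 in Rnmt cKO, against 0.931%. All lay in the 3′ part of the region, from nucleotide 3949 to nucleotide 4232, with 3 to 61 nucleotides between neighbours. The first 5 bins of 64 nucleotides held none.

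The sequence around the called sites is shown because the base at each site was not used to call it. The rRNA sequences aligned to by the authors were not used here. The last exon of the mouse mitochondrial leucyl-tRNA synthetase gene Lars2 contains a stretch that resembles 28S rRNA, and this was chosen as a stand-in from background knowledge. The stretch lies in the 3′ UTR, in exon 21 of 21 of Lars2-201, at chr9:123461802-123462187 on the plus strand (GENCODE vM21, GRCm38). It was placed on 28S from the mock libraries alone, by how much of the variance in mock read starts its bases accounted for. The best placement had an R2 of 0.338 over 200 nucleotides, and the best at any other offset had 0.133 among 335220 placements. The 386 bases fell on 28S nucleotides 3885 to 4270. A single base of this stretch may differ from the rRNA. The stretches below run 5′ to 3′, with the called nucleotide in capitals and T in place of U.
nucleotides 3949 and 3952: cgcttgatctTgaTtttcagtagg
nucleotide 3965: tcagtaggaaTacagaccgtg
nucleotide 4006: ttctgaccttTtgggttttaa
nucleotide 4056: gataactggcTtgtggcggcc
nucleotides 4073 and 4076: ggccaagcgtTcaTagcgacgtcg
nucleotide 4095: cgctttttgaTccttcgatgt
nucleotide 4124: cctatcattgTgaagcagaat
nucleotide 4185: gagctgggatTagaccgtcgt
nucleotide 4205: tgagacaggtTagttttaccc
nucleotides 4229 and 4232: tgatgatgtgTtgTtgccatggta

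All 13 called sites were T in the placed stretch, whereas T made up 26.5% (94) of the 355 placed nucleotides of domain V. In 3 of the 10 stretches a pair of called sites stood 3 nucleotides apart. Of the 183 placed nucleotides that were tested, 66 were T, 47 G, 40 A and 30 C. The minimum mean termination of 1% for testing included the CMC libraries. A T could therefore pass it through its CMC termination, as at nucleotide 4110 (0.396% in mock, 2.89% in CMC), and the share of T among those tested was raised. CMC termination was higher than mock at 32 of the 183 (edgeR, adjusted p under 0.05), and 29 of the 32 were T. Of the 19 among them that were not called sites, 16 were T, and A, C and G had 1 each. Of the 51 placed nucleotides with a lower termination in CMC, 20 were A, 13 were C, 16 were G and 2 were T. The 3 higher nucleotides that were not T were 3947, 3951 and 4093. Nucleotides 3947 and 3951 lie just 5′ of the called sites 3949 and 3952, and 4093 follows a run of T at 4089 to 4092, where CMC termination was also higher, by log2 changes of 0.49 to 0.87. Uncalled T had a median log2 change of 0.04, against -0.30 for A, -0.29 for C and -0.23 for G.

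**Figure D1:**
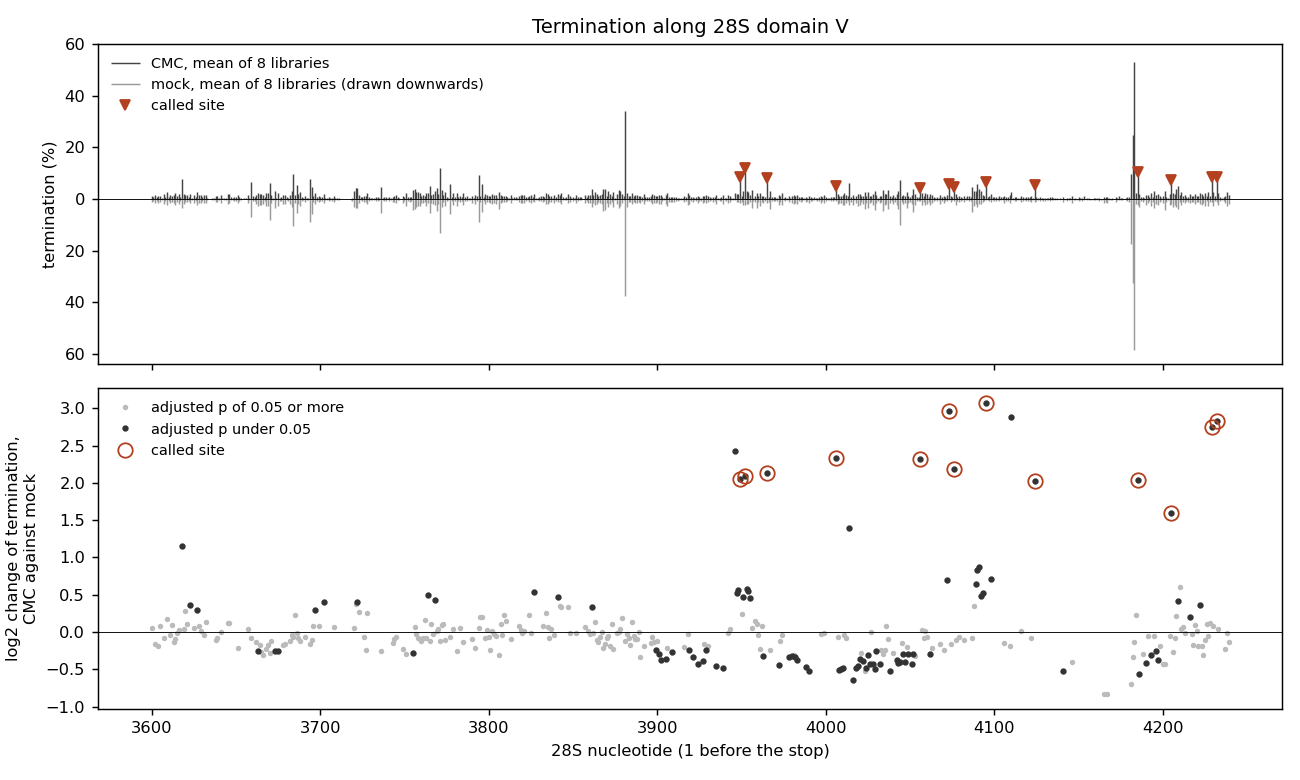
Top, mean termination (%) at each of the 640 positions of 28S domain V, with the 8 CMC libraries drawn upwards, the 8 mock libraries downwards and triangles at the 13 called sites. Bottom, log2 change of termination between CMC and mock at the 342 positions tested, dark where the adjusted p was under 0.05. The called sites have log2 changes of 1.60 to 3.07 and lie from nucleotide 3949 onwards, while the tallest stops, at nucleotides 3881 and 4183, appear in both directions.

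The level of CMC termination differed 3.59-fold among the called sites. Nucleotide 3952 had the highest, 10.6 ± 0.702% (SD, n = 8 CMC libraries), against 2.50 ± 0.279% in mock. The control animals had 11.6, 10.4, 10.8 and 11.1% with CMC, and the Rnmt cKO animals 11.0, 10.3, 10.1 and 9.33%. Every CMC library was well above every mock library, whose highest value was 2.93%. Nucleotide 4185, next to the strong stop at 4183, came second with 8.98 ± 0.551% and was below 3952 in 7 of 8 animals. It was above nucleotide 4232 in 8 of 8 animals.

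Nucleotides 4232, 3949, 4229 and 3965 followed with 7.20 ± 0.571%, 6.97 ± 0.554%, 6.83 ± 0.447% and 6.76 ± 0.629%. Each was above the next in only 5, 5 and 3 of 8 animals, so these neighbours did not differ beyond their spread. Nucleotides 4205 (5.77 ± 0.581%), 4095 (4.94 ± 0.650%), 4073 (4.40 ± 0.427%), 4124 (4.07 ± 0.593%) and 4006 (3.65 ± 0.382%) came below them. Nucleotides 4076 and 4056 were lowest, with 3.02 ± 0.205% and 2.94 ± 0.297%. Of this last pair, 4076 was above 4056 in 4 of 8 animals. At all 13 sites CMC termination exceeded mock in 8 of 8 animals.

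The background decided a different order for the PSU score. The score was highest at nucleotide 4073, 8.84 ± 4.40 (SD, n = 8 animals), and at nucleotide 4095, 8.75 ± 2.23, both of which had mock terminations of 0.578 and 0.580%. Nucleotides 4232 and 4229 had 7.18 ± 1.08 and 6.78 ± 0.946. Nucleotides 4056, 4006, 4076 and 3965 had mean scores from 5.46 down to 4.59, and nucleotides 3949 and 4124 had 4.16 ± 0.530 and 4.15 ± 0.949. The 2 sites with the highest CMC termination, 3952 and 4185, had scores of 4.27 ± 0.460 and 4.14 ± 0.410, since their mock terminations were 2.50 and 2.18%. Nucleotide 4205 had the lowest score, 3.21 ± 1.06. Scores varied more between animals than the CMC termination did. The coefficient of variation was 0.0614 to 0.146 for CMC termination, and 0.0906 to 0.463 for mock termination.

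At nucleotide 4073 the spread of the score rested largely on the animals numbered 1. The PSU scores of the control animals were 17.9, 6.94, 6.83 and 7.42, and those of the Rnmt cKO animals 13.2, 7.46, 5.36 and 5.57. The animals numbered 1 were the highest of both genotypes. The CMC termination of control 1 at this site was 4.07%, between 4.00 and 4.62% in the other control animals. Its mock termination was 0.227% (26 of 11431 read starts, Wilson 95% interval 0.155 to 0.333%, counting error only), against 0.577 to 0.622% in the others. Rnmt cKO mock 1 was also the lowest of its group, 0.371% against 0.683 to 0.815%.

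**Figure D2:**
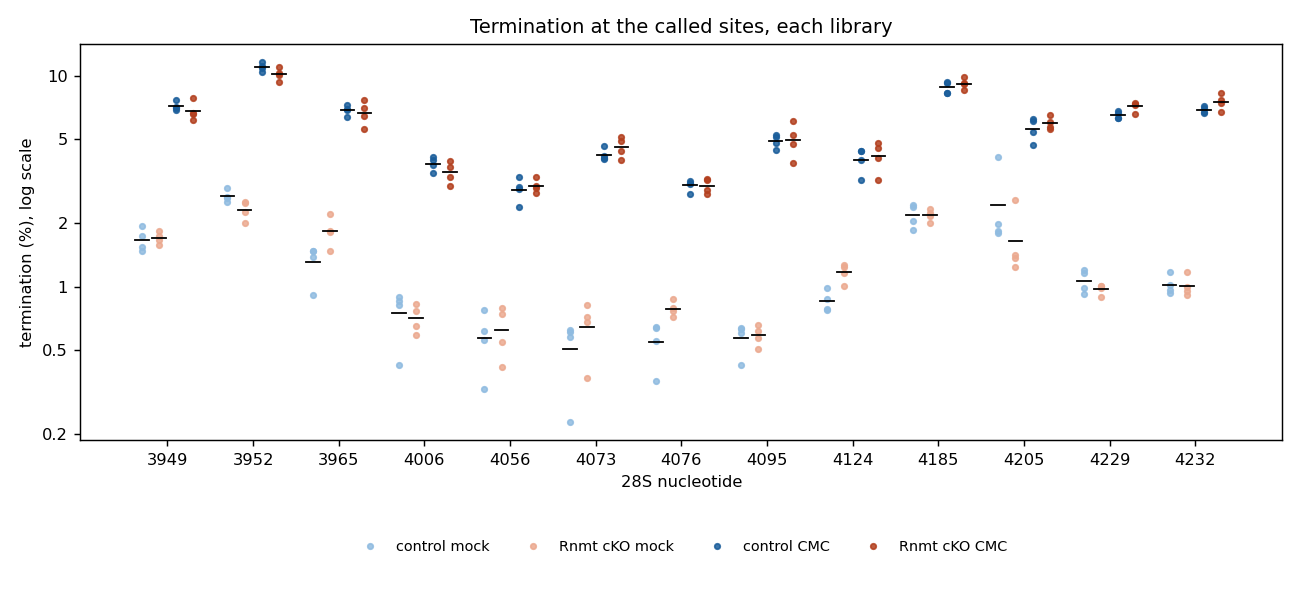
Termination (%, log scale) at the 13 called sites, each point 1 library and each bar the mean of 4. The CMC libraries of both genotypes sit above all mock libraries at every site, and come closest to them at nucleotide 4205, where control mock 1 has 4.13% and the lowest CMC library 4.66%.

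The effect of CMC was tested at 4026 positions of all rRNAs with a mean termination of at least 1%, with the animal as a block. Over all of them 21.7% differed between CMC and mock (edgeR, adjusted p under 0.05), 11.5% being higher and 10.2% lower in CMC. In domain V 342 positions were tested and 98 differed, or 28.7%, with 43 (12.6%) higher and 55 (16.1%) lower. The minimum of 1% was a mean over CMC and mock libraries, so a position could pass it through its CMC termination. Nucleotides 4110 and 4095, with 0.396 and 0.580% in mock, did so, and the counts of higher positions include such positions. With no filter, 67 of 640 positions of domain V were higher, against 701 of 6827 in all rRNA. The 13 called sites, which had been chosen by the same contrast, had log2 changes from 1.60 at nucleotide 4205 to 3.07 at nucleotide 4095 and are given as a description. A log2 change above 1 was found at 17 of the 342 positions of domain V, against 89 of the 4026 in all rRNA, called sites included in both. Of the 17, 13 were the called sites. The 4 that were not called were nucleotides 3618, 3946, 4014 and 4110. Without both animals numbered 1, 131 of 345 positions of domain V differed, 53 higher and 78 lower, against 1113 of 4044 in all rRNA, 494 higher and 619 lower. Without control 4 the lower ones numbered 36 of 342, against 271 of 4024.

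The lower positions were small in size and were not spread evenly. Their log2 changes ran from -0.65 to -0.23. Of the 55, 42 lay within 64 nucleotides downstream of a stop with a log2 change above 1, where the coverage window includes the added read starts of that stop. In those stretches 24.9% of 169 tested positions were lower, against 8.33% of 156 elsewhere, these stops themselves left out. The bin from nucleotide 3984 to 4047, downstream of 3949, 3952 and 3965, held 23 of the lower positions. With total library size (TMM) in place of the window coverage, 35 positions of domain V were higher and 50 lower, against 427 higher and 276 lower of 4026 in all rRNA. The part of the coverage window in the lower positions was not tested.

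The 4 uncalled positions were close to the thresholds. Nucleotide 4110 had PSU scores of 7.87 (control) and 7.16 (Rnmt cKO), and its CMC termination of 2.98% and 2.80% was just under 3%. Nucleotide 3946, 3 nucleotides before the pair at 3949 and 3952, had a CMC termination of 2.29% in control and 2.06% in Rnmt cKO, and PSU scores of 6.14 and 4.99. Both are T in the placed stretch. Nucleotide 4014, also T, had a CMC termination of 6.04% and 6.27%, but a mock termination that held its score at 2.97 and 2.37. Nucleotide 3618, which lies outside the placed stretch, had a high termination in both treatments, 7.73 ± 0.567% in CMC and 3.50 ± 0.373% in mock (n = 8 each). Just inside the thresholds, nucleotide 4056 was called in Rnmt cKO with a mean CMC termination of 3.01% but not in control with 2.88%. Nucleotide 4205 was called in Rnmt cKO with a score of 3.87 but not in control with 2.55. The call in 1 genotype alone is not a test of a difference. Nucleotide 4174, which was also named by the rule for positions near the thresholds, rested on few reads. Control mock 1 had 0 of 1270 read starts there, which allows a termination of up to 0.236%.

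With windows of 50, 40 and 30 nucleotides, 17, 18 and 19 sites were called in either genotype, against 78, 77 and 81 of the 6878 positions of all rRNA, and each set included the 13. A minimum CMC termination of 5% left 7 of the 13, and 43 sites in all rRNA.

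The strongest stops of domain V were also present without CMC. A mean mock termination of at least 10% was found at 6 positions that were not called, namely 3684, 3771, 3881 and the adjacent nucleotides 4181, 4182 and 4183. At 3684 termination was 10.3 ± 1.34% in mock and 9.86 ± 1.35% in CMC libraries, and at 3771 it was 13.2 ± 3.26% and 11.9 ± 1.01% (SD, n = 8 each). Bases of rRNA that are modified on the Watson-Crick face block reverse transcription without CMC, and N3-methyluridine in the peptidyl transferase centre is a known example. In the placed stretch nucleotides 4181, 4182 and 4183 are G, G and A, and 3684, 3771 and 3881 lie outside it. Whether the bases at these stops are modified was not tested.

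Nucleotide 4183 had the highest termination of the region. Mock libraries had 73.4, 56.9, 57.3 and 58.8% for the control animals and 67.8, 49.2, 52.4 and 51.9% for the Rnmt cKO animals. CMC libraries had 55.8, 59.7, 54.2 and 50.4% for the control animals and 52.4, 47.4, 48.6 and 55.3% for the Rnmt cKO animals. The animals numbered 1 had the highest mock values of both genotypes. With them the genotypes overlapped in mock, and without them the control mock libraries lay above the Rnmt cKO ones, while the CMC libraries of both genotypes overlapped. Nucleotide 3881 had 37.4 ± 7.40% in mock and 33.9 ± 3.20% in CMC libraries (n = 8 each), with control mock 1 again highest at 51.2%. Neither position differed between CMC and mock (edgeR, adjusted p = 0.246 and 0.326).

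The nucleotides 5′ of 4183 behaved otherwise. At 4181 the control mock libraries had 1.20, 21.4, 16.3 and 17.8% and the Rnmt cKO mock libraries 10.6, 23.4, 23.6 and 23.8%. The CMC libraries were closer together, with 9.35, 6.86, 8.06 and 9.76% for control and 11.0, 11.2, 12.2 and 9.72% for Rnmt cKO. Every mock library of the animals numbered 2 to 4 was above every CMC library, whereas control mock 1 was below them all with 12 of 1002 read starts (Wilson 95% interval 0.686 to 2.08%). With all animals the difference did not pass (log2 change -0.70, edgeR, adjusted p = 0.169). Without the animals numbered 1 it did (log2 change -1.13, edgeR, adjusted p = 8.3e-06), and without control 1 alone it was -0.98 (edgeR, adjusted p = 0.000598).

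At 4182 the control mock libraries had 10.6, 39.6, 34.0 and 36.1% and the Rnmt cKO mock libraries 35.2, 34.5, 35.3 and 35.7%, against 22.9 to 26.4% in the 8 CMC libraries. Here too control mock 1 alone lay below the CMC libraries. The log2 change was -0.34 with all animals (edgeR, adjusted p = 0.204) and -0.52 without the animals numbered 1 (edgeR, adjusted p = 0.00107). At 4183 the log2 change without these animals was -0.05 (edgeR, adjusted p = 0.671). At 4181 and 4182 termination was higher in mock than in CMC in 6 of the 6 remaining animals, a pattern that was tested after it had been seen.

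**Figure D3:**
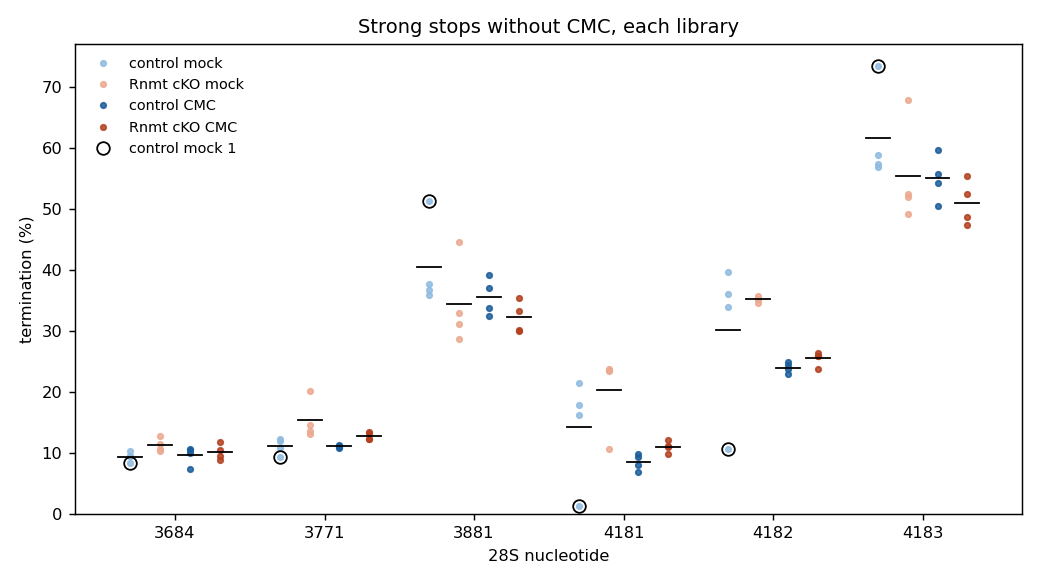
Termination (%) at the 6 positions of 28S domain V with a mean mock termination of at least 10%, each point 1 library, bars the mean of 4 and open circles control mock 1. At 4181 and 4182 the mock libraries other than the circled one lie above the CMC libraries, apart from Rnmt cKO mock 1 at 4181 (10.6%), and at 4183 the CMC and mock libraries overlap.

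The 3 adjacent stops together ended 65.8 to 81.7% of the read starts in their window, by library, and the read starts thinned out upstream of them. The median per position in the 64 nucleotides before them was 4.00 to 35.5 per library, against 124.0 to 226.0 in the nucleotides after them. The ratio ranged from 5.00 to 31.2, and the highest was in control mock 1. The bin from nucleotide 4112 to 4175 held 2.67 ± 0.404% of the read starts of domain V in CMC and 2.08 ± 0.576% in mock libraries (n = 8 each), and only 7 of its positions reached a mean termination of 1%. Nucleotide 4124 was the single call in this bin. The sites at 4185, 4205, 4229 and 4232 lie downstream, and their windows include the read starts of these stops, which enter the denominators of their percent termination.

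The question put to genotype was whether the loss of RNMT changes pseudouridine in rRNA. None of the 13 sites of domain V differed in PSU score between control and Rnmt cKO (limma, lowest adjusted p = 0.599), and 0% of the 70 sites of all rRNA did. At an unadjusted p under 0.05 there were 4 of the 70 sites of all rRNA, and 1 of the 13 in domain V, nucleotide 4076. The control animals scored 8.55, 4.99, 4.93 and 4.86 there and the Rnmt cKO animals 3.74, 3.70, 4.46 and 3.47. The genotypes did not overlap, as at 2.86% of the 70 sites. The means were 5.83 ± 1.81 for control and 3.84 ± 0.426 for Rnmt cKO (SD, n = 4 each), a difference of -1.99 (limma, SE 0.847, adjusted p = 0.599) that was -1.05 without the animals numbered 1 (limma, adjusted p = 0.524). CMC termination at 4076 was 3.03 ± 0.186% for control and 3.01 ± 0.251% for Rnmt cKO, and mock termination 0.548 ± 0.134% and 0.786 ± 0.0660%.

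The next smallest p-values were at nucleotides 3965 and 4205. At 3965 the control animals scored 7.58, 4.35, 4.91 and 4.93 and the Rnmt cKO animals 5.15, 3.83, 2.90 and 3.06, a difference of -1.71 (limma, SE 0.819, adjusted p = 0.599). It was -0.99 without control 1 and -1.46 without both animals numbered 1 (limma, adjusted p = 0.886 and 0.280). At 4205 the scores were 1.51, 3.40, 2.55 and 2.73 for control and 2.53, 4.61, 4.38 and 3.94 for Rnmt cKO, a difference of 1.32 (limma, SE 0.648, adjusted p = 0.599). It was 0.97 without control 1 and 1.42 without both animals numbered 1 (limma, adjusted p = 0.886 and 0.280). With all animals the genotypes overlapped at both sites. Rnmt cKO had the higher mean score at 5 of the 13 sites, against 29 of 70 in all rRNA. Per animal, the median score over the 13 sites was 4.35 to 6.04 in control and 3.94 to 5.15 in Rnmt cKO.

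**Figure D4:**
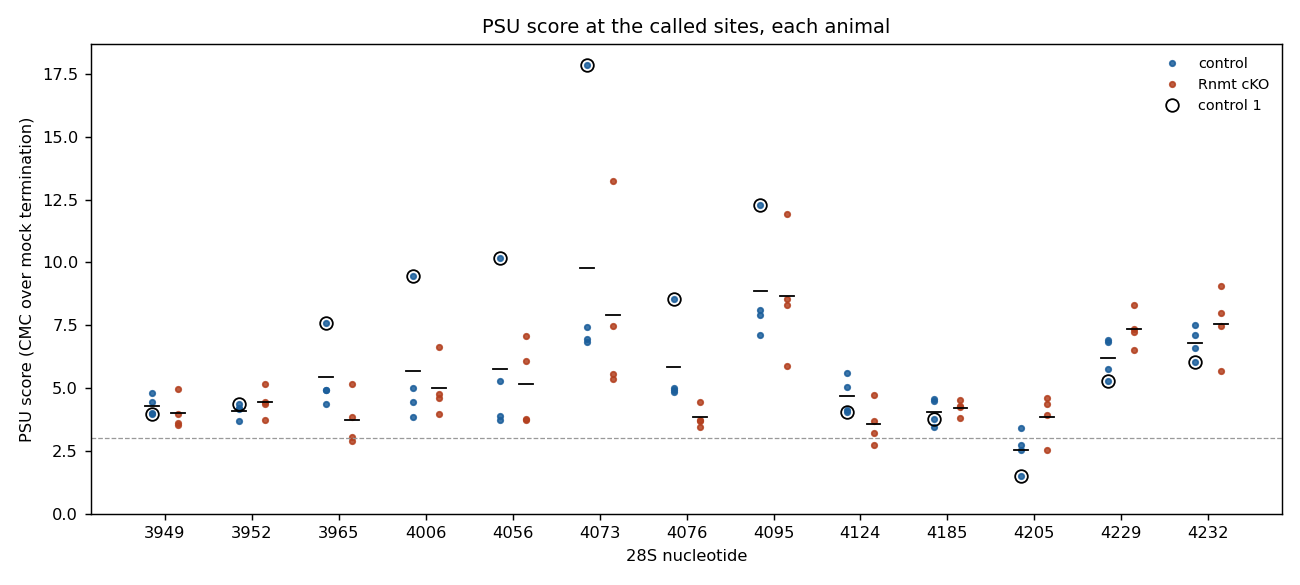
PSU score at the 13 called sites, each point 1 animal, bars the mean of 4, open circles control 1 and the dashed line the threshold of 3. At nucleotides 3965 to 4095 control 1 lies above the other control animals, up to 17.9 at nucleotide 4073, and at 4205 below them (1.51).

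CMC termination alone differed by less. None of the 13 sites passed, nor did any have an unadjusted p under 0.05 (edgeR). Of the 70 sites of all rRNA 1.43% passed, and 11 had an unadjusted p under 0.05. The smallest p-values were at nucleotides 4229, 4232 and 3952, with log2 changes of 0.13 ± 0.0851 (SE), 0.12 ± 0.0881 and -0.11 ± 0.0864 in Rnmt cKO against control (edgeR, adjusted p = 0.504, 0.630 and 0.630). At 4229 the control CMC libraries had 6.31, 6.29, 6.68 and 6.78% and the Rnmt cKO CMC libraries 7.43, 7.24, 7.32 and 6.60%, and the 2 groups overlapped. Sites without overlap of the genotypes in CMC termination numbered 0 of the 13, against 11.4% of the 70. The change of the CMC effect with genotype, an interaction, passed at 0 of the 342 positions tested in domain V and at 0% of 4026 in all rRNA (edgeR), with 33 in domain V and 244 in all rRNA at an unadjusted p under 0.05. DESeq2 passed 0 in domain V and 10 in all rRNA. The smallest p-values were at nucleotides 3883, 3872 and 4141 (log2 changes 0.47, 0.45 and -0.72, edgeR, adjusted p = 0.785 for each), none of them a called site. The called sites 4076, 3965 and 4205 were among the 33, with log2 changes of -0.53, -0.54 and 0.62 (edgeR, adjusted p = 0.785 for each).

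Termination without CMC was compared between genotypes at 339 positions of domain V with a mean mock termination of at least 1% over both genotypes. A position could pass this minimum through 1 genotype alone, as nucleotide 4124 did (0.854% in control, 1.17% in Rnmt cKO). With all 8 mock libraries none differed between genotypes (edgeR, 0% of 3985 in all rRNA), 18 had an unadjusted p under 0.05, against 248 in all rRNA, and DESeq2 passed none in domain V and 5 in all rRNA. The smallest p-values were at nucleotides 3688, 4124 and 3683. At 3688 the control mock libraries had 2.06, 2.49, 2.57 and 2.68% and the Rnmt cKO mock libraries 3.16, 3.17, 3.08 and 3.54%, a log2 change of 0.40 (edgeR, SE 0.104, adjusted p = 0.653). The genotypes did not overlap in mock termination at 3 of the 13 called sites, 3965, 4076 and 4124, all higher in Rnmt cKO, against 7.14% of the 70.

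With the replicate number as a block, 5 positions of domain V were lower in Rnmt cKO (edgeR, adjusted p 0.0165 to 0.0424), and 1.05% of the 3985 positions of all rRNA differed. They were nucleotides 3695, 3959, 4045, 4210 and 4224, with log2 changes from -1.35 to -0.63. Without the animals numbered 1, 16 of 347 positions differed, 14 lower and 2 higher in Rnmt cKO, against 3.26% of 4021 positions in all rRNA (edgeR). Of these 16, 2 (nucleotides 3695 and 3959) were also among the 5. All 16 had changed in the same direction, below the threshold, with all animals included. That fit holds the same libraries that selected the 16, so the shared direction is a description and not support.

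At nucleotide 3695 mock termination in the animals numbered 2 to 4 averaged 5.81 ± 0.454% for control and 2.55 ± 0.511% for Rnmt cKO (SD, n = 3 each), a log2 change of -1.18 (edgeR, SE 0.133, adjusted p = 0.00207). The animals numbered 1 had 12.2% and 8.09%, each above all others of its genotype. At nucleotide 4023 the means were 4.21 ± 0.250% for control and 2.23 ± 0.259% for Rnmt cKO, a log2 change of -0.91 (edgeR, SE 0.100, adjusted p = 0.00196). At nucleotide 4044 they were 10.3 ± 0.555% and 7.09 ± 0.547%. The called site 4205 had 1.86 ± 0.0969% and 1.34 ± 0.0895%, and the called site 4124, higher in Rnmt cKO, had 0.810 ± 0.0527% and 1.22 ± 0.0526% (same order). The CMC libraries of all animals had a change in the same direction at 12 of the 14 lower positions, but none of the 15 positions tested in CMC libraries passed (edgeR, lowest adjusted p = 0.279), 4165 being below the minimum termination. The share with the same direction over all rRNA was not determined, so the 12 of 14 is a description. Depth differed as well, since control mock libraries held 1850996 to 2165668 read starts and Rnmt cKO mock libraries 1130058 to 1827610. The part of depth and of library preparation in these differences was not tested.

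**Figure D5:**
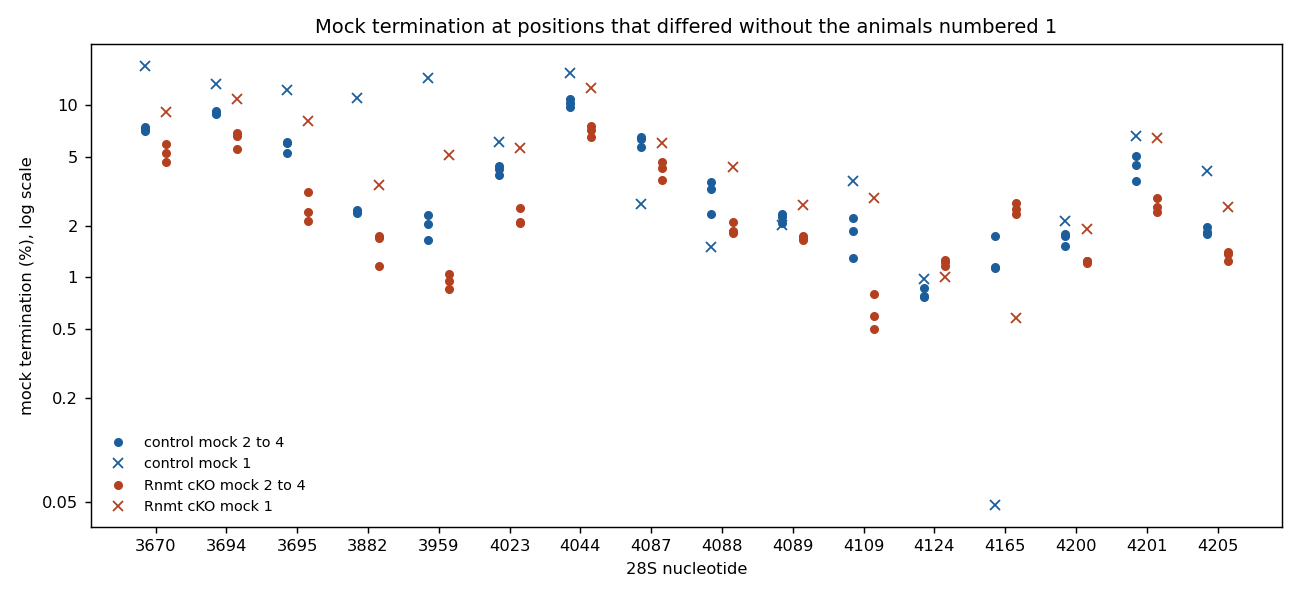
Mock termination (%, log scale) at the 16 positions of 28S domain V that differed between genotypes without the animals numbered 1, with filled points for animals 2 to 4 and crosses for animals 1. The filled groups do not overlap at any of these positions, which were selected for that difference, and each cross lies outside the filled points of its own genotype, as at nucleotide 3959, where control 1 has 14.4% and Rnmt cKO 1 has 5.12%.

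Domain V took a similar share of 28S read starts in all groups. It was 10.9 ± 0.194% in control CMC, 10.6 ± 1.12% in control mock, 10.7 ± 0.248% in Rnmt cKO CMC and 10.8 ± 0.396% in Rnmt cKO mock libraries (SD, n = 4 each). The range over the 16 libraries was 8.93 to 11.3%, and the lowest was control mock 1.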

How the data were processed

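Per the study's methods, barcodes were extracted by the authors, who then trimmed adapters, used bowtie2 to align to custom rRNA sequences and removed duplicates, secondary and low-quality alignments. The submitters' processing notes also list STAR 2.5.2b. The deposited files give counts of read starts per rRNA nucleotide, not normalised, and hold no coverage. The labels name an isolation kit for naive CD4 T cells, whereas the methods name a kit for CD4 T cells in Ψ-seq. Groups and replicate numbers came from the sample titles; separate animals were taken as replicates.

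Coverage was replaced by the read starts in a 65 nt window. Sites were called at 3% CMC termination and a PSU score of 3. Counts were tested with edgeR 4.0.16 (quasi-likelihood, log window coverage as offset), and PSU scores with limma 3.58.1, over all rRNA, 2-sided, with Benjamini-Hochberg adjustment at 0.05. DESeq2 1.42.0, limma on log2 termination, other windows, library sizes and filters were alternatives. R 4.3.3 and Python 3.11.15 were used. Sites were named by a rule covering called sites, strong mock stops, near-threshold positions and the smallest p-values of each genotype fit. The region, lists and tests were chosen with earlier results of these data known.

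Same-numbered animals deviated together in mock termination across 3985 positions (r = 0.658, 0.424, 0.169 and 0.381) and in log2 PSU score over 70 sites (r = 0.578, 0.127, 0.368 and 0.167), so by the rule used here (each above 0.1) the numbers pair both. Without the animals numbered 1, r was 0.0251, -0.0671 and 0.181 for mock termination and -0.0439, 0.297 and 0.0134 for the score, so both pairings rest on those animals. CMC termination gave values below 0. None of the 24 replicate pairs matched to within counting error (the lowest chi-square, over its degrees of freedom, was above 1). Wilson intervals and the floor of 3 counts cover counting error only.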

Additional observations from a re-analysis of the deposited data

Results flagged for a closer look

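A single far value among 4 samples, by Dixon's criterion, was found in 11 of 102 groups of domain V. Chance would give about 5.1 for independent groups. These groups share libraries, and the PSU scores share the mock values, so the 2 numbers cannot be compared directly. Control mock 1 or the score made from it was the far value in 9 of the 11, and Rnmt cKO mock 1 in the other 2.

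Among the called sites, mock termination of control mock 1 was below the other control animals at nucleotides 3965 (0.914% against 1.39 to 1.48%), 4006 (0.423% against 0.822 to 0.893%), 4073 (0.227% against 0.577 to 0.622%) and 4095 (0.425% against 0.603 to 0.633%). At nucleotide 4205 it was above them, 4.13% against 1.79 to 1.97%. Rnmt cKO mock 1 was above its group at the same nucleotide, 2.58% against 1.24 to 1.41%. At nucleotide 4073 the PSU score of control 1 was 17.9, while the others had 6.83 to 7.42. At nucleotide 4076 it was 8.55, while the others had 4.86 to 4.99.

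At the strong stops, control mock 1 was above the other control libraries at nucleotides 3881 (51.2% against 35.9 to 37.7%) and 4183 (73.4% against 56.9 to 58.8%). Rnmt cKO mock 1 was below its group at nucleotide 4181, 10.6% against 23.4 to 23.8%.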

How the results depend on the processing

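Of 946 alternative values of 55 results, 899 stayed on the same side of the threshold or within the spread, 39 moved, 5 were stronger, 0 weaker and 3 reversed. The called sites had a higher CMC termination past the threshold in all 247 alternative values, counted over sites and settings, with log2 changes of 1.45 to 3.15. They had been chosen by the same contrast, so this is a description. With a CMC termination of at least 5%, 7 sites were called in either genotype, 6 in control and 7 in Rnmt cKO, against 43, 39 and 38 in all rRNA. In control, windows of 40 and 30 nt gave 17 and 18, against 73 and 77 in all rRNA. Leaving out 1 animal or both animals numbered 1 gave 12 to 15 sites in either genotype, 11 to 14 in control and 11 to 13 in Rnmt cKO. In all rRNA these settings gave 68 to 74, 61 to 67 and 59 to 68, in the same order. With a window of 40 nt, 152 of 500 positions of domain V were CMC-dependent (65 higher, 87 lower), against 1226 of 5475 in all rRNA. A window of 30 nt gave 164 of 564 (65 higher, 99 lower), against 1418 of 6075. No filter gave 159 of 640 (67 higher, 92 lower), against 1230 of 6827. Leaving out animals gave 74 to 131 of 341 to 346 positions, 38 to 53 higher and 36 to 78 lower, against 660 to 1140 of 4021 to 4044 in all rRNA. The log2 change between CMC and mock, which passed the threshold at neither strong stop, changed sign at nucleotide 3684 with a window of 30 nt (0.0139) and at 4183 with windows of 40 and 30 nt (0.00397 and 0.0370); the cause was not tested. The replicate block gave 5 positions with a changed mock termination, and leaving out animals gave 0 to 16. With or without a block, the PSU score, CMC termination and interaction counts of domain V stayed at 0, also across every animal left out. The block of the CMC fit was the animal. Without this block 112 of 342 positions were CMC-dependent (43 higher, 69 lower), and 980 of 4026 in all rRNA. With the block there were 98 of 342 (43 higher, 55 lower), and 874 of 4026 in all rRNA. Domain V held 6.10% of all rRNA read starts, 14.6% of those of 28S without its last 400 nt, and 9.47% of 28S without the strong stops. With all rRNA as denominator, the CMC share was 0.166 percentage points higher in Rnmt cKO, against -0.185. The median mock termination of the 6 strong stops, 24.9%, was 34.6, 41.1 and 49.1% with windows of 50, 40 and 30 nt, by construction. Read starts were low upstream of nucleotide 4181, and mock counts were low at some called sites, down to 26 at nucleotide 4073. Their part in the spread of the scores was not tested.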
